A study of Mus musculus with 38 samples.

Results

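CREB binding sites of mouse hepatocytes given glucagon alone were compared with those of hepatocytes given glucagon plus corticosterone, with each site sorted by whether it lay at a binding site of the glucocorticoid receptor (GR). The members were all sites of the 2 CREB lists, 70319 of the 278566 regions in the 11 lists used. The glucagon list held 28229 sites and the list for glucagon plus corticosterone, called the combined list below, held 42090 sites. A site of one list was matched to a site of the other when they shared at least 1 base. Sites with exactly 1 partner each way formed 20821 pairs, and of these 3555 lay at a GR site and 17266 lay away from one. A pair was at a GR site when either of its sites shared at least 1 base with 1 of the 11892 sites of the GR list.

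Binding was mapped by chromatin immunoprecipitation with sequencing, which recovers the DNA bound by a protein with an antibody to it. The material was primary hepatocytes of C57BL/6 mice, isolated by collagenase perfusion of the liver and treated in culture. The glucagon group had 2 libraries of CREB from cells given 10 nM glucagon for 1 h, and the combined group had 2 libraries of CREB from cells given 10 nM glucagon together with 1.7 uM corticosterone for 1 h. The GR group had 2 libraries from cells given the same combined treatment, and the untreated group had 1 library of CREB; no group of cells given corticosterone alone, and no GR list of cells given glucagon alone, was analysed here. No genetic change is named for any group, and how many mice each library came from is not stated in the sources used here. The other lists used, of CREB, phospho-CREB and H3K27ac, came from C57BL/6 liver, from fed animals or after a fast of 24 h, and for H3K27ac also of 10 h, with 3 libraries per group. The label of hepatocytes could not be set against marker genes, because the lists hold positions in build mm9 and no gene annotation of that build was used here.

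Glucagon is the fasting hormone that acts on the liver. Its receptor raises cyclic AMP, which activates protein kinase A, and the kinase phosphorylates CREB, a factor that binds cyclic AMP response elements in DNA and recruits coactivators of genes such as those of gluconeogenesis. Corticosterone, the main glucocorticoid of mice, also rises in fasting, and it sends GR into the nucleus, where GR binds enhancers of many of the same metabolic genes. H3K27ac is acetylation of histone H3 at lysine 27, a mark of active promoters and enhancers.

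CREB sites at GR sites stood higher in the combined list than in the glucagon list, relative to other CREB sites of the same list. The measure was the highest tag density within a site, ranked among the 20821 paired sites of each list separately, with percentile 100 for the densest. The median pair at a GR site stood at percentile 68.2 with glucagon and at percentile 79.3 with the combined treatment. The median pair away from GR sites stood at 46.8 and at 44.4. The rank shift, which is the combined percentile minus the glucagon percentile of the same pair, had a median of 5.07 points at GR sites (95% binomial interval of the median 4.60 to 5.58) and of -1.94 points away from them (-2.13 to -1.79). Because percentiles over one set of pairs must average out, a move up of one class is matched by a move down of the other, and these shifts are relative.

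A shift of at least 10 points up was seen for 1389 of 3555 pairs at GR sites, or 39.1% (95% Wilson interval 37.5 to 40.7), against 21.7% of all pairs. Away from GR sites it was seen for 3119 of 17266 pairs, or 18.1% (17.5 to 18.6). A shift of at least 10 points down was seen for 239 pairs at GR sites, or 6.72% (5.95 to 7.59), against 23.4% of all pairs. Away from GR sites 4639 pairs, or 26.9% (26.2 to 27.5), moved down that far. A rise of any size was found in 72.3% of pairs at GR sites and in 40.2% of pairs away from them. The classes overlapped widely: the middle 50% of shifts ran from -0.33 to 19.9 points at GR sites and from -10.9 to 5.94 points away, and the full ranges were -71.6 to 84.0 and -76.4 to 80.2.

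**Figure D1:**
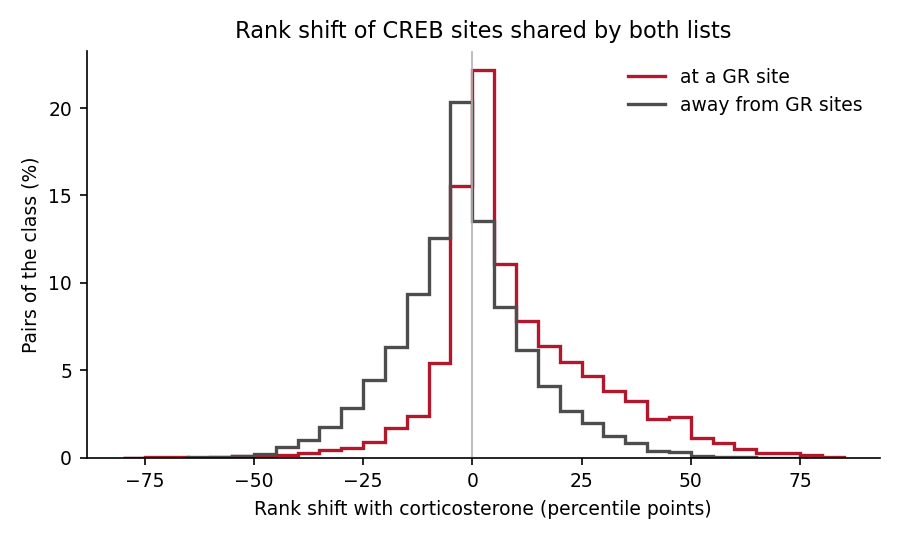
Share of pairs (y axis, percent of each class) by rank shift with corticosterone (x axis, percentile points, in bins of 5 points) for the 3555 pairs at a GR site and the 17266 pairs away from GR sites. The curve at GR sites has a long right arm, with 24.9% of pairs up by at least 20 points against 7.78% away from GR sites.

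Each list gives 1 value per site for its whole group and no value per library, so no spread between replicates was available and no test between the treatments was made. The intervals cover counting error over sites only, and neighbouring sites are not independent. Bulk chromatin does not separate a larger share of cells with a bound site from more frequent binding in each cell, so these cannot be told apart. The 2 lists also differed in length and, it appears, in depth. Density values in the glucagon list moved in a common step of 0.309 and those in the combined list in a step of 0.212; if a step is 1 tag, the combined list rests on 1.46 times as many tags, and the part of that difference in the ranks was not tested.

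The larger the upward shift, the larger the share of pairs at GR sites. GR sites held 17.1% of all pairs, 27.9% of the 6394 pairs that moved up by at least 5 points, 30.8% of the 4508 up by at least 10, 39.7% of the 2228 up by at least 20 and 49.4% of the 1059 up by at least 30. Of the 152 pairs that moved up by at least 50 points, 112 lay at a GR site, or 73.7% (66.2 to 80.0). Among pairs that moved down the share at GR sites stayed lower than among all pairs at every size. It was 5.97% of 7242 pairs at 5 points, 4.61% of 2017 pairs at 20 points and 5.69% of 703 pairs at 30 points. At 50 points it was 12.2% (5.73 to 24.2) of 49 pairs, an interval that includes the 17.1% of all pairs.

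CREB sites at GR sites were denser and wider than others already with glucagon alone, so the pairs were also compared within deciles of the mean of both percentiles. The median shift was higher at GR sites than away from them in 10 of 10 deciles, and it was above 0 at GR sites and below 0 away from them in each of the 10. The gap was widest in decile 4, with a median of 28.3 points at GR sites (23.9 to 32.6, 232 pairs) and -2.44 points away (-3.59 to -1.27, 2095 pairs). In that decile 73.3% of pairs at GR sites moved up by at least 10 points, against 28.4% of pairs away. In decile 10, the densest, the medians were 1.00 and -0.85 points, and in decile 1 they were 0.46 (-0.08 to 1.06) and -0.61. Ranks near the ends of the scale have little room to move. In deciles of the glucagon percentile alone, the shift was also higher at GR sites in 10 of 10. In decile 2 it was 30.6 points at GR sites (222 pairs) against 3.14 points away (1852 pairs). Sorting by 1 of the 2 ranks lets pairs drift back towards the usual rank of their class, which was higher at GR sites. The median shift of pairs away was 4.72 points in decile 1 and -7.33 points in decile 7. The part of such drift in the gap was not tested.

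Densities themselves, which have no such ceiling, showed a gap in the dense sites too. The scaling of the densities is not given, so the ratio of combined to glucagon density was read only as the difference between pairs at GR sites and pairs away, in which a common scale cancels. The median log2 ratio was 0.58 higher at GR sites over all pairs, a 1.49-fold difference. By decile this fold difference was 1.12 in decile 1, ran from 1.57 to 1.71 in deciles 2 to 5, and was 1.37 in decile 10. In the densest decile by the glucagon percentile alone, the median density with glucagon was 62.7 at GR sites and 68.9 away. In the combined list it was 132.3 at GR sites and 103.7 away. This decile too was sorted by the glucagon rank, and the part of drift in these values was not tested.

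**Figure D2:**
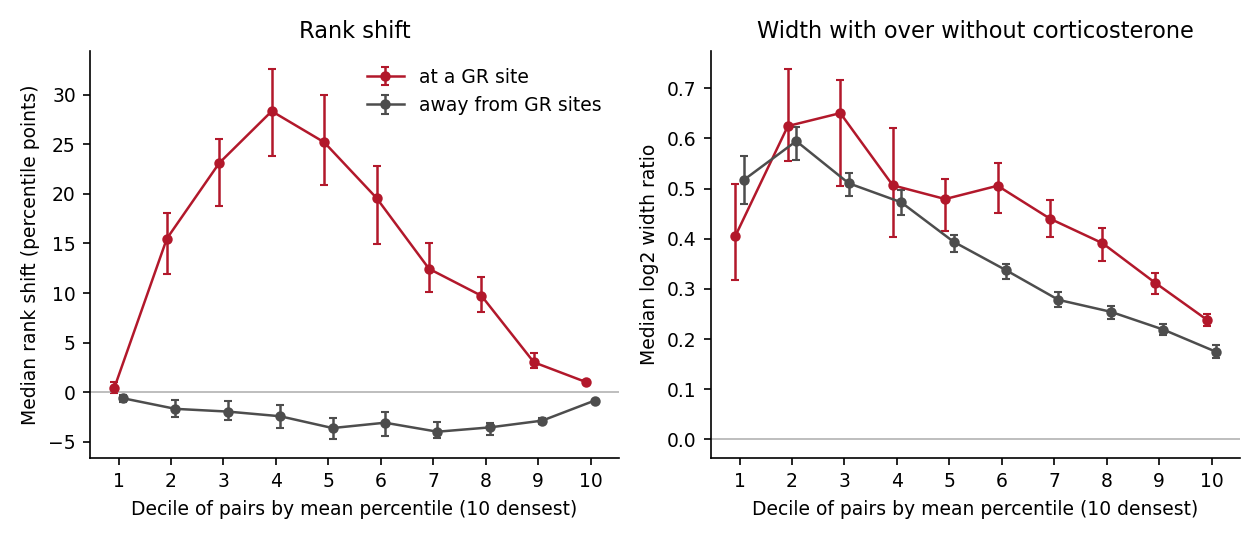
Median rank shift (left, percentile points) and median log2 width ratio, combined over glucagon (right), by decile of the mean percentile (x axis), for pairs at a GR site and away from GR sites, with 95% binomial intervals of the median. The shift at GR sites peaks at 28.3 points in decile 4 while the shift away stays between -4.00 and -0.61 points, and the width ratio is higher at GR sites in 9 of 10 deciles.

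CREB sites were wider in the combined list whether or not GR was near. At GR sites the median width was 788 bp with glucagon and 1068 bp with the combined treatment, and away from GR sites it was 626 bp and 829 bp. The median log2 width ratio was 0.37 at GR sites (0.35 to 0.38) and 0.35 away from them (0.34 to 0.35), or 1.29-fold and 1.27-fold. A pair was counted as wider at 1.5-fold or more: this held for 991 pairs at GR sites, or 27.9%, and for 5085 pairs away, or 29.5%, against 29.2% of all pairs. Narrowing by 1.5-fold or more was rare, with 14 pairs at GR sites, or 0.394%, and 185 pairs away, or 1.07%, against 0.956% of all pairs.

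The near equality of these overall width ratios did not hold among sites of like density. Sparser sites tended to gain more width, and few of the sparse sites lay at GR sites. Within deciles of the mean percentile the median width ratio was higher at GR sites in 9 of 10, the exception being decile 1, where it was 0.41 at GR sites and 0.52 away. In decile 6 the log2 ratio was 0.51 at GR sites (0.45 to 0.55) and 0.34 away (0.32 to 0.35), and in decile 10 it was 0.24 and 0.17. Within quintiles of mean width the ratio was higher at GR sites in 5 of 5, and so was the rank shift. In width quintile 2 the median shift was 22.1 points at GR sites (420 pairs) and -1.86 points away (3744 pairs), and in the widest quintile it was 1.69 and -1.87.

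Some sites touched several partners. In the combined list 333 of 4803 sites at GR sites, or 6.93% (6.25 to 7.69), shared a base with 2 or more separate glucagon sites, against 666 of 37287 sites away from GR, or 1.79% (1.66 to 1.93). The reverse, a glucagon site that touched 2 or more combined sites, was found for 19 of 4350 at GR sites and 113 of 23879 away, or 0.437% and 0.473%. Wider sites have more room for 2 partners, and the part of width in this difference was not tested. These sites are outside the one-to-one pairs, and with the sites they touch they left 2156 glucagon sites with a partner but in no pair.

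The shift was largest where CREB and GR sites were centred on each other. To narrow the range of density, distance was examined among pairs with a mean percentile of 20 to 70. Pairs whose CREB midpoint lay under 100 bp from a GR midpoint had a median shift of 23.2 points (21.2 to 24.6, 1080 pairs), and 68.6% of them moved up by at least 10 points. At 100 to 250 bp the median was 10.2 points (6.46 to 15.8, 198 pairs), and at 250 to 500 bp it was 10.3 points (0.88 to 15.0, 71 pairs). From 500 to 1000 bp it was -2.29 points (-5.38 to 4.90, 82 pairs). Pairs at 1000 to 5000 bp stood at 2.46 points (0.77 to 4.34, 810 pairs). Those at 100000 bp or more stood at -4.32 points (-4.98 to -3.55, 4135 pairs), with 21.6% up by at least 10 points. Of all 11239 pairs in this band, 886 at GR sites and 2467 away moved up that far.

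**Figure D3:**
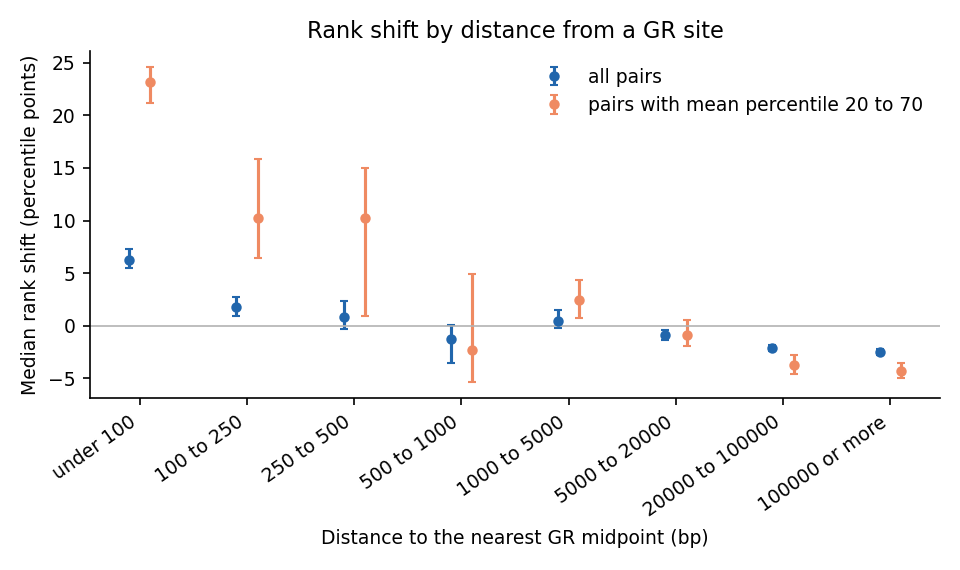
Median rank shift (y axis, percentile points, with 95% binomial intervals) by distance of the CREB midpoint to the nearest GR midpoint (x axis, bp), for all pairs and for pairs with a mean percentile of 20 to 70. In the latter the median is 23.2 points under 100 bp and -4.32 points at 100000 bp or more.

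Among pairs with a mean percentile of 20 to 70 the shift was larger at the densest GR sites than at those of the next quintiles. Over all pairs at GR sites the median shift differed little by quintile of GR density, at 5.44 points in the densest GR quintile, 4.61 in the next and 6.28 in the middle one. The pairs at dense GR sites were, however, already dense with glucagon, at a median percentile of 82.8 in the densest quintile and 28.2 in the middle one. Among pairs with a mean percentile of 20 to 70, the median shift was 31.9 points at the densest GR quintile (28.4 to 34.9, 346 pairs), 15.7 in the next (13.5 to 18.3, 717 pairs) and 14.0 in the middle one (10.3 to 19.1, 274 pairs). The second quintile had a median of 16.2 (-5.50 to 35.2) over 27 pairs, and the sparsest had 24.6 (-14.6 to 42.8) over 5 pairs. Below the densest quintile the medians followed no order and their intervals overlapped. Within this band the median shift at GR sites ran from 28.3 points in decile 4 of the mean percentile to 12.4 in decile 7. Density was not matched further, and its part in the difference between GR quintiles was not tested.

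The higher shift at GR sites was seen across the genome. It held on each of the 20 chromosomes with at least 20 pairs at GR sites, with medians from 2.74 points on chromosome 2 to 16.7 on chromosome X at GR sites. For pairs away the medians of these chromosomes ran from -3.43 to -0.66. Chromosome X had 90 pairs at GR sites.

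The pairs with the largest upward shifts at GR sites were named among pairs with a mean percentile of at least 50. That choice by itself picks sites of low rank with glucagon and of high rank with the combined treatment. Positions below are in build mm9 as the lists give them. The largest was on chromosome 18, where a glucagon site at 9491004 to 9491255, with a density of 6.81 at percentile 12.7, lay inside a combined site at 9488856 to 9494923, with a density of 157.8 at percentile 96.7. That combined site was 6068 bp wide against 252 bp, so its summit need not be where the glucagon site lay, and the GR midpoint was 1416 bp from the CREB midpoint. The others were narrower and centred within 46.5 bp of the GR midpoint. A site on chromosome 2 at 151927415 to 151928052 went from a density of 7.42 at percentile 16.9 to 104.5 at percentile 93.8. One on chromosome 13 at 103698672 to 103699100 went from 7.11 to 79.0, or from percentile 14.8 to 90.8. Neither of those was in the untreated hepatocyte list or in any liver list used. One on chromosome 7 at 121105608 to 121106220 went from 7.11 to 78.0, and one on chromosome 2 at 152610177 to 152610770 from 7.73 to 108.7, or from percentile 19.1 to 94.1. Each of the 5 lay at a GR site in the upper 10% of the GR list, at GR percentiles from 92.6 to 97.3.

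Among pairs with the same minimum mean percentile of 50, the largest downward shifts at GR sites were smaller. A site on chromosome 2 at 90235006 to 90235507 had a density of 34.7 at percentile 87.4 with glucagon and 9.99 at percentile 15.7 with the combined treatment, a shift of -71.6 points. The next was on chromosome 7 at 108213185 to 108214029, with 20.7 and 12.7, a shift of -48.2 points, and the other 3 had shifts from -40.6 to -35.5 points. The 5 were all present in the untreated list. Under the same minimum, the largest rise away from GR sites was on chromosome 15 at 59491912 to 59492252, from 8.03 to 60.4, or 66.5 points, and its nearest GR midpoint was 6577 bp away. The largest fall there, again under that minimum, was on chromosome 2 at 156546186 to 156547045, from 27.5 to 10.8, or -64.1 points.

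The densest pairs stand so close to percentile 100 that a percentile shift says little of them, and their densities are given instead. Of the 5 densest at GR sites, the first was on chromosome 7 at 52972711 to 52974114, with densities of 509.7 and 978.9, the highest of both lists, and it was also the densest of the untreated list at 1042. The GR site that touched it was centred 972 bp away, at GR percentile 54.3. The second, on chromosome 4 at 35172944 to 35174478, had densities of 404.6 and 895.4 and lay on a GR site at percentile 99.8. The third, on chromosome 5 at 77333957 to 77335310, had 347.9 and 530.5. The fourth, on chromosome 4 at 150129208 to 150130358, had 259.8 and 730.9, and the fifth, on chromosome 8 at 10856748 to 10858029, had 257.1 and 639.2. In the untreated list the second to the fifth had 149.0, 652.2, 52.5 and 15.8, while the 5 densest pairs away from GR sites, at 380.9 to 465.1 with glucagon, had 713.2 to 946.6. Densities of different lists share no known scale, so only their order within a list is read: the chromosome 8 site was far below those 5 in the untreated list and close to them in the combined one, while the chromosome 5 site was below them in both.

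The combined list was longer, and 20061 of its sites, or 47.7%, had no partner in the glucagon list, against 5252, or 18.6%, of the glucagon sites with none in the combined list. With both lists reduced to the same length by density these shares were 28.7% and 25.2%. Equal lengths by themselves bring such shares close together, so the part of list length in that gap was not tested. The share without a partner was lower at GR sites than away. In the combined list 899 of 4803 sites at GR had none, or 18.7% (17.6 to 19.8), against 51.4% (50.9 to 51.9) of 37287 sites away. In the glucagon list it was 335 of 4350 at GR, or 7.70% (6.95 to 8.53), against 20.6% (20.1 to 21.1) of 23879 away. The share was highest among sparse sites in both lists, and sites away from GR were sparser.

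In deciles 9 and 10 of the combined list, the densest, the order was the other way round. In its densest decile 71 of 1887 sites at GR had no glucagon site under them, or 3.76% (2.99 to 4.72), against 10 of 2323 away, or 0.430% (0.234 to 0.791). In decile 9 it was 98 of 980 at GR, or 10.0%, against 4.24% of 3228 away, and in decile 8 it was 14.5% against 12.2%. From decile 6 downwards the share was lower at GR sites, for example 33.9% against 41.9% in decile 6 and 50.5% against 81.7% in decile 3. In the glucagon list too few dense sites lacked a partner to show an order: its densest decile had 0 of 928 at GR and 0 of 1894 away, and its decile 9 had 2 of 768 and 1 of 2057.

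**Figure D4:**
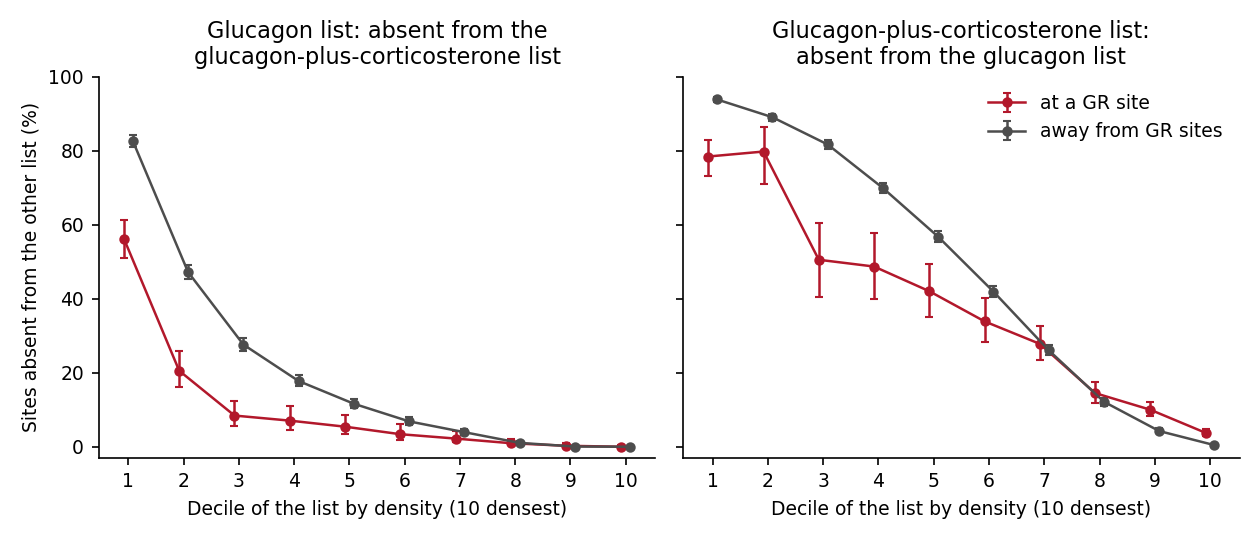
Share of sites with no partner in the other list (y axis, percent, with 95% Wilson intervals) by decile of density within the list (x axis, 10 the densest), for the glucagon list (left) and the combined list (right), at a GR site and away. In decile 10 of the combined list the share is 3.76% at GR sites and 0.430% away; in decile 1 of the glucagon list it is 56.2% and 82.7%.

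The densest sites at GR that only the combined list held reached well into its upper ranks. The first was on chromosome 3 at 78996575 to 78998617, 2043 bp wide, with a density of 212.3 at percentile 99.0 of the combined list, and the GR site there was at percentile 99.4 of the GR list. The second was on chromosome 13 at 52831266 to 52832289, with 180.2, and the third on chromosome 8 at 112511300 to 112512408, with 144.5. Of the 5 densest, 3 were in the untreated hepatocyte CREB list, at chromosomes 3, 1 and 9, so these had been listed without hormone and not with glucagon. The untreated list was made from 1 library set against itself, per its name, and its filter may therefore differ. Those on chromosomes 3 and 13 were in none of the liver lists used.

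The densest sites at GR that only the glucagon list held were less dense, with 29.2 for the first, at percentile 87.3 of the glucagon list. Over all such sites the median percentile was 7.42 for the 335 of the glucagon list and 48.7 for the 899 of the combined list. Of the 5 densest, 3 lay on chromosomes X and Y, at X 120113607 to 120114380, X 120118458 to 120118976 and Y 1790814 to 1791159. These 3 and 1 on chromosome 11 at 34495009 to 34495824 were present in every liver list used, CREB, phospho-CREB and H3K27ac, while the other, on chromosome 10, was in none of the liver CREB or phospho-CREB lists. Of the 335, 27.5% (23.0 to 32.5) were in the CREB list of 24 h fasted liver, close to the 24.7% (23.4 to 26.1) of glucagon sites at GR that had a partner. Among glucagon sites away from GR this share was 2.46% of the 4917 with no partner and 19.6% of those with one.

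Seen from the GR list, more GR sites held a CREB site in the combined list than in the glucagon list. A CREB site lay on 37.1% of the 11892 GR sites in the glucagon list and on 42.7% in the combined list, and on 39.1% in the untreated list. The combined list but not the glucagon list had a CREB site on 994 of them, and the reverse held for 331. In the densest quintile of GR sites the shares were 72.0% untreated, 77.3% with glucagon and 89.1% with the combined treatment. In the sparsest quintile they were 13.7%, 4.42% and 4.82%. The combined list covered 31.2 Mb, the glucagon list 18.2 Mb and the untreated list, of 47596 sites, 27.6 Mb. The part of list length in these shares was not tested. In the sparsest GR quintile 68 GR sites had a CREB site in the combined list but not in the glucagon list, and 60 the reverse. In the densest quintile these counts were 316 and 36.

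CREB sites at GR sites also stood higher with glucagon alone than without hormone. Sites with a one-to-one partner in the untreated, glucagon and combined lists numbered 16465, of which 2758 lay at GR sites, and were ranked anew in each list. At GR sites the median percentile was 48.5 untreated, 69.8 with glucagon and 79.4 with the combined treatment. Away from them it was 50.6, 46.4 and 44.1. The median shift at GR sites from untreated to glucagon was 11.4 points (10.3 to 12.5) and that from glucagon to the combined treatment was 4.41 points (3.76 to 5.07). The second step started from a higher median percentile, 69.8 against 48.5, and had less room to rise, so the sizes of the steps are not compared. For sites away from GR these steps were -2.91 points (-3.16 to -2.66) and -1.72 points (-1.91 to -1.55). Both steps share the glucagon list, so they are not independent, and the untreated list is from 1 library. It held 47596 sites, more than either of the other lists. Its lowest density, 0.128, was below its common step of 0.640, so that step cannot be read as 1 tag and the depth of that list is not known. The part of length and depth in these ranks was not tested.

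The steps differed by density. In decile 4 of the mean of the 3 percentiles the median step at GR sites was 12.1 points with glucagon and 24.0 points when corticosterone was added, over 200 sites. In decile 7 it was 22.3 points and 6.46 points, over 439 sites, and in decile 10 it was 4.57 and 0.07 points over 222 sites. Both steps away from GR sites had medians below 0 in each of the 10 deciles. GR binding was measured only with corticosterone present, so which of these sites GR occupies with glucagon alone was not analysed here.

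**Figure D5:**
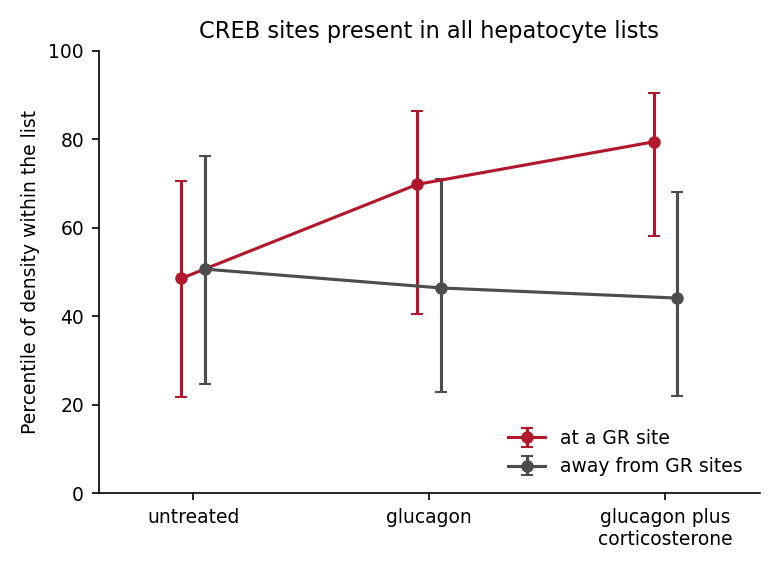
Percentile of density within each list (y axis) for 16465 CREB sites present in the untreated, glucagon and combined lists (x axis), with points at the median and bars over the middle 50% of sites. At a GR site (2758 sites) the median goes from 48.5 to 69.8 to 79.4, and away from GR sites from 50.6 to 46.4 to 44.1.

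Pairs that moved up at GR sites had lower shares in the untreated and liver H3K27ac lists than pairs at GR sites that moved by under 10 points. Of the 1389 pairs up by at least 10 points at GR sites, 73.9% (71.6 to 76.2) were in the untreated hepatocyte CREB list, against 91.9% (90.5 to 93.0) of the 1927 pairs at GR sites that moved by under 10 points. The share was 85.1% over all pairs. Away from GR sites it was 81.8% of the pairs up by at least 10 points and 86.9% of those that moved by under 10 points. To narrow the range of density, pairs with a mean percentile of 20 to 70 were taken. Among these, H3K27ac of fed liver lay on 31.2% (28.2 to 34.3) of the 886 pairs that moved up at GR sites. The share was 58.8% (53.3 to 64.2) for the 311 there that moved by under 10 points. The same mark lay on 54.9% (52.9 to 56.8) of the 2467 that moved up away from GR sites and on 57.2% of all 11239. With H3K27ac of 24 h fasted liver these shares were 36.1%, 61.7%, 55.7% and 58.2%. With H3K27ac of 10 h fasted liver they were 53.7%, 71.4%, 64.7% and 66.7%. Among the classes given here, the pairs that moved up at GR sites had the lowest share in each of these 3 lists. The untreated list held 71.6% of the pairs in this band that moved up at GR sites and 89.4% of those there that moved by under 10 points. It held 82.5% of those that moved up away from GR sites and 85.8% of all pairs in the band. Pairs that moved down at GR sites were not taken as a class in this band.

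Liver CREB and phospho-CREB lists held far fewer of these pairs. In the same band of density, CREB of fed liver lay on 6.88% (5.40 to 8.74) of the pairs that moved up at GR sites. It lay on 14.8% (11.3 to 19.2) of pairs there that moved by under 10 points, and on 13.7% of all pairs in the band. CREB of 24 h fasted liver lay on 8.35% (6.71 to 10.4) and 10.6% (7.66 to 14.5), intervals that overlap, and on 8.31% of all pairs in the band. Phospho-CREB of 24 h fasted liver lay on 34 of the 886, or 3.84% (2.76 to 5.31), and on 10 of the 311, or 3.22% (1.76 to 5.82). It lay on 8 of the 2467 that moved up away from GR sites, or 0.324% (0.164 to 0.639), and on 0.632% of all pairs in the band. Phospho-CREB of fed liver lay on 2.60% (1.74 to 3.87) of the 886 and on 3.22% (1.76 to 5.82) of the 311. For the 2467 this share was 0.973% (0.655 to 1.44), and it was 1.01% for all pairs in the band. Liver lists come from whole tissue of other animals, so they describe where these sites are listed elsewhere and not a second reading of the treatment.

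Among pairs away from GR sites, those that moved up lay nearer to a GR site than the rest. A GR midpoint was within 5000 bp for 373 of the 3119 pairs up by at least 10 points, or 12.0%, for 7.97% of all 17266 pairs away, and for 6.55% of the 4639 that moved down. The median distances were 59293 bp, 79372 bp and 87211 bp. Most pairs that moved up away from GR sites therefore had no listed GR site close by.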

How the data were processed

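The members and lists were chosen with earlier results of these data known. The authors' peak caller gave every site a position, a highest and a mean tag density (the signal), a score and its p-value, as the column names of the deposited lists show. How the authors scaled the density signal is not stated in the sources used here. The score, a z-score per site, was computed by the authors before they deposited the lists, per the file headers, and its scaling is likewise not stated. The aligner and the peak caller's version were not stated either. CASAVA 1.8 and build mm9 are named, per the submitters' processing notes. The names of the hepatocyte lists point to hotspot calls from a pair of libraries, and for untreated hepatocytes to 1 library set against itself. Liver CREB and phospho-CREB lists are also named by a pair of library numbers, so how many of a group's libraries they rest on is not clear. The names of the liver H3K27ac lists point to a pool over a range of library numbers. Of 13 lists, 11 were used; the other 2, with 8 columns of values, matched no sample. No total count per library was used here, so the depth is unknown apart from the density steps in the text.

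Starts and ends were read as included bases. Density was ranked within each list only. Shares have 95% Wilson intervals, and medians have exact binomial intervals; both cover counting error only. No test was run, because the lists hold no value per library. Named regions were the 5 densest pairs at GR sites and 5 away, the 5 largest shifts each way at GR sites and 3 away among pairs with a mean percentile of at least 50, and the 5 densest sites at GR of each list only; leading ones are given in full. The density ratio was added after the rank shifts were seen. The only gene tables at hand are of another build, so no gene was assigned and no sequence printed. The code was tested on simulated lists. Software was matplotlib 3.10.9, SciPy 1.17.1, pandas 2.3.3, numpy 2.4.6 and Python 3.11.15.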

Additional observations from a re-analysis of the deposited data

How the results depend on the processing

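Over the 52 values recomputed under other settings none reversed, 35 stayed within the interval of the main value and 17 moved out of it. Pairing each glucagon site with its densest partner gave median shifts of 5.62 points at GR sites and -2.95 away, and log2 width ratios of 0.44 and 0.38. Ranking by z-score gave 3.66 and -2.13 points, with 32.5% and 19.3% of pairs up by at least 10 points. Lists of equal length gave 5.71 and -2.13 points with 40.9% and 18.7% up, and the shares without a partner became 25.2% of glucagon sites and 28.7% of combined sites. In the full lists the shares without a partner were 47.7% of combined sites and 18.6% of glucagon sites. A smaller gap at equal length follows from the equal lengths themselves. With a shift of at least 20 points, 24.9% and 7.78% of pairs were up. Requiring 50% of the shorter site to be shared left 19.4% of glucagon sites without a partner. GR midpoints within 500 bp, the upper 50% of the GR list, chromosomes X and Y left out and, added after the data were seen, a GR site that touches the glucagon site kept every value within its interval. Leaving out a replicate could not be run, since each list gives 1 value per site. No paired analysis was possible because the lists give no value per library.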
